A study of Homo sapiens with 6 samples.

Results

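The RNF, TRIM and F-box genes encode substrate-selecting parts of ubiquitin ligases. They were taken as every gene symbol in the 3 peak lists that reads RNF, TRIM, FBXO, FBXL or FBXW followed by digits alone. The rule found 126 genes among 10785 symbols, with 48 RNF, 34 TRIM, 26 FBXO, 13 FBXL and 5 FBXW genes, and 555 m6A peaks over the 3 lists. N6-methyladenosine (m6A) is a modified base inside messenger RNA, and YTHDF2 (DF2 in the labels) is a reader protein that binds it and brings the RNA to decay. U2OS cells, an established human osteosarcoma line that the labels call WT, received DF2 siRNA 1, DF2 siRNA 2 or a control siRNA. Cytoplasmic RNA was cut to fragments of about 100 nt and pulled down with an anti-m6A antibody beside unselected input, which gives 6 samples, 1 input and 1 m6A-IP for each siRNA. The authors deposited 1 merged peak list per condition, so no difference between conditions can be tested. Knockdown of YTHDF2 cannot be checked in peak lists, which also hold no RNA level. Fewer molecules of a transcript and less m6A per molecule therefore cannot be told apart.

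A ubiquitin ligase, or E3, picks a protein and helps an E2 enzyme attach ubiquitin to it, which can send the protein to the proteasome or change what it binds. Most RNF and TRIM proteins carry a RING domain that holds the E2 directly, and TRIM proteins add B-box and coiled-coil parts. F-box proteins have no RING of their own and dock on SKP1 in cullin-RING complexes, where WD40 repeats (FBXW), leucine-rich repeats (FBXL) or other domains (FBXO) hold the substrate.

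Some member peaks covered the start of the transcript, and sequence was at hand for that place. RefSeq (GRCh38.p14) gave the first 50 transcribed bases for 100 members. A peak covered at least 1 of these bases in 16 genes with DF2 siRNA 1, 21 with DF2 siRNA 2 and 19 with control siRNA, and in 27 genes in any list. The letters GGAC, a core of the m6A motif, were searched on the transcript's own strand, with overlapping matches allowed. They stood in the first 50 bases of 6 of those 27 genes, of 18 of the 100 members (18.0%, 95% exact binomial interval 11.0 to 26.9%) and of 18.8% of the 27305 RefSeq promoters searched. A match is a string of letters and no mapped m6A site. A 30-base stretch of each of the 6 genes is printed because it shows which base runs a peak of each list covers. Each line runs 5′ to 3′ with GGAC in capitals.
FBXO2: GGACagcgccgGGACtcgccgccccgGGAC
FBXO5: ggcgggctaagctGGACtggggggagggtc
FBXW2: cccctgtgaggctgcGGACcgggagcagcg
TRIM23: gcctctcagttgaGGACtctgaaggctgtt
TRIM38: agtggcagcaacagaggGGACtagcagcga
TRIM52: cagcggctgcatctgaggcGGACgccgcag

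The FBXW2 stretch (chr9:120793367-120793396, minus strand) lay whole inside a peak in all 3 lists. The FBXO2 stretch (chr1:11654394-11654423, minus strand), with 3 GGAC strings, was covered in all 30 bases by both DF2 siRNA lists and in 0 by the control list. A control peak of FBXO2 (chr1:11654429-11654628) ended just upstream of it, at the first transcribed base, and overlapped a peak of both DF2 siRNA lists. FBXO5 (chr6:152983536-152983565, minus strand) was covered by the DF2 siRNA 2 and control lists, and TRIM23 (chr5:65624298-65624327, minus strand) by the DF2 siRNA 1 list. The TRIM52 stretch (chr5:181261094-181261123, minus strand) lay in a DF2 siRNA 2 peak, and the TRIM38 stretch (chr6:25962822-25962851, plus strand) in a control peak. The 6 stretches thus fell under 6 different combinations of lists.

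Whole-list facts set the background. The lists held 13147 peaks with DF2 siRNA 1, 13310 with DF2 siRNA 2 and 15272 with control siRNA. The deposited score of a peak has no definition in the sources used here, and its median was 33, 99 and 158 in those lists, so scores were ranked as percentiles within a list. Where a gene's percentile or fold enrichment is given for more lists than 1, no change is read from it. All 3 lists keep peaks with an FDR of at most 0.05, and the depth behind a peak is unknown. Intervals given with shares cover counting error alone. In 10 members a peak overlapped one given to another symbol or, in FBXO31, one with no symbol. FBXO18 and RNF219 are now named FBH1 and OBI1. In FBXL8, FBXO16, RNF34, RNF215 and TRIM69, 21 of the 555 member peaks lay wholly outside the gene's RefSeq span, 11 of them in RNF215, and stayed under the symbol the authors gave.

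The ligase genes held 183 peaks in 108 genes with DF2 siRNA 1, 186 peaks in 108 genes with DF2 siRNA 2 and 186 peaks in 116 genes with control siRNA. Mean peaks per gene were 1.69 and 1.72 with DF2 siRNA 1 and 2 and 1.60 with control siRNA, against 1.61, 1.60 and 1.66 over protein-coding genes of the same lists. A gene with 3 or more peaks was found among 14.8% of members with DF2 siRNA 1, 16.7% with DF2 siRNA 2 and 13.8% with control siRNA. The intervals were 8.71 to 22.9%, 10.2 to 25.1% and 8.09 to 21.4%. Over protein-coding genes the shares were 13.5%, 13.1% and 15.1%, each inside the members' interval. By subfamily the mean in the DF2 siRNA 1, DF2 siRNA 2 and control lists was 1.85, 1.93 and 1.75 for RNF, 1.77, 1.65 and 1.56 for TRIM, and 1.36, 1.38 and 1.40 for FBXO. It was 1.36, 1.67 and 1.55 for FBXL and 2.25, 2.25 and 1.75 for FBXW, which rests on 4 genes in each list. The RNF means lean on RNF213, with 10, 7 and 6 peaks, and RNF215, with 5, 4 and 6. The SD of peaks per RNF gene was 1.59, 1.27 and 1.18. The median score percentile of a member peak was 53.5, 56.8 and 53.0 in the 3 lists, near the 52.8, 54.7 and 55.5 of all protein-coding genes.

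The stop codon was the commonest place of member peaks, as of peaks in protein-coding genes at large. A stop codon was part of 96 of 183 peaks with DF2 siRNA 1 (52.5%, 45.0 to 59.9%), of 92 of 186 with DF2 siRNA 2 (49.5%, 42.1 to 56.9%) and of 98 of 186 with control siRNA (52.7%, 45.3 to 60.0%). Protein-coding genes had 47.1%, 48.8% and 49.1%, each inside the members' interval. Peaks in the 5′ UTR made up 19.7% and 20.4% of member peaks with DF2 siRNA 1 and 2 and 17.2% with control siRNA, beside 20.4%, 18.6% and 16.5% of protein-coding peaks. Peaks in the 3′ UTR made up 15.3% and 17.7% with the DF2 siRNAs and 22.0% with control siRNA, beside 18.4%, 18.9% and 21.6%. Where a peak could touch no other part, the 3′ UTR shares of members were 11.5%, 13.4% and 13.4%. Among the 50% of peaks with the highest scores, 12 of 98, 11 of 107 and 13 of 100 member peaks lay there. Coding peaks were 10.4%, 9.14% and 5.38% of member peaks, beside 11.9%, 10.5% and 8.69%. The order of the 3 lists in each of these UTR and coding classes, apart from the 2 DF2 siRNA lists' 5′ UTR shares, was the same for members and for protein-coding genes. Stop codon peaks were also the stronger ones, with median percentiles of 65.0, 68.1 and 70.7, beside 65.7, 66.5 and 68.5 over all such peaks. Member 3′ UTR peaks had 40.9, 31.0 and 32.5 in the DF2 siRNA 1, DF2 siRNA 2 and control lists. All 3′ UTR peaks had 40.9, 41.7 and 40.8.

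**Figure D1:**
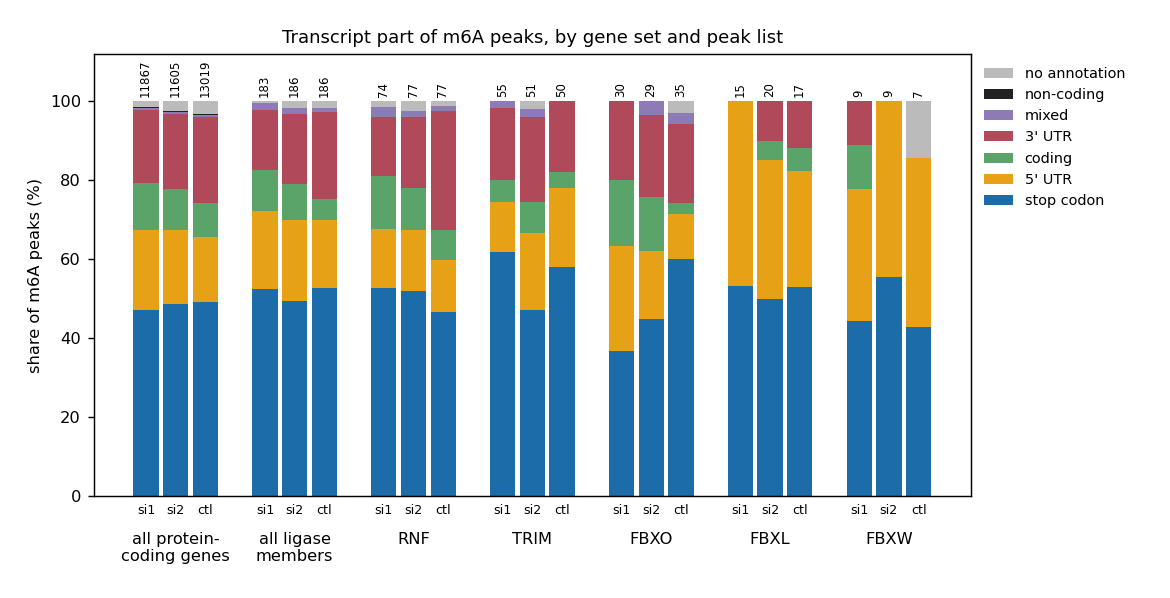
Share of m6A peaks (%) by transcript part for all protein-coding genes, all ligase members and the 5 subfamilies, with bars for DF2 siRNA 1 (si1), DF2 siRNA 2 (si2) and control siRNA (ctl) and the number of peaks above each bar. Stop codon peaks form 49.5 to 52.7% of member peaks, and the bars of FBXL and FBXW rest on 7 to 20 peaks.

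Subfamilies spread around these shares with wide intervals. FBXO peaks included a stop codon in 11 of 30 with DF2 siRNA 1 (36.7%, 19.9 to 56.1%), 13 of 29 with DF2 siRNA 2 (44.8%) and 21 of 35 with control siRNA (60.0%). RNF peaks in the 3′ UTR numbered 11 of 74 and 14 of 77 with DF2 siRNA 1 and 2 and 23 of 77 with control siRNA. FBXL peaks were in the 5′ UTR class in 7 of 15, 7 of 20 and 5 of 17. That class also takes peaks that run on into coding sequence. Over all members it held 36, 38 and 32 peaks, but 11, 11 and 12 where a peak could touch no other part. TRIM peaks had stop codons in 34 of 55 with DF2 siRNA 1, 24 of 51 with DF2 siRNA 2 and 29 of 50 with control siRNA. The intervals of the lists overlapped in each of these sets.

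Of the 126 members, 98 had a peak in all 3 lists (77.8%, 69.5 to 84.7%). The same held for 65.4% of all 10785 genes and 71.0% of 8795 protein-coding genes, and the share of protein-coding genes lay inside the members' interval. By subfamily these were 36 of 48 RNF, 28 of 34 TRIM, 21 of 26 FBXO, 10 of 13 FBXL and 3 of 5 FBXW genes. Peaks found in control alone marked 13 members (10.3%, 5.61 to 17.0%), beside 12.0% of all genes and 8.95% of protein-coding ones. Peaks in both DF2 siRNA lists with none in control marked 5 members (3.97%, 1.30 to 9.02%), beside 3.55% and 3.83%. Both counts were near the background. A further 10 members had another combination. Both DF2 siRNA lists are set against the same control list, so their losses share it. With the lists brought to equal length, 8 of 121 members were in control alone, beside 7.35% of all genes, and 7 were in both DF2 siRNA lists alone, beside 4.59%. Among the 50% of peaks with the highest scores in a list, 3 of 86 members were in control alone, beside 13.3% of all genes, and 3 were in both DF2 siRNA lists alone, beside 3.55%.

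The counts by role that follow come from small hand-made lists and are descriptions. They are to be read against the 65.4% of all genes and 71.0% of protein-coding genes with a peak in all 3 lists. Both shares are of genes with a peak in any list, so listed genes with no peak stay outside that comparison. The strongest ligase peaks were alike in place in all 3 lists. Among RNF genes the 4 highest control scores belonged to RNF145, RNF168, RNF139 and RNF11. RNF145 and RNF139 are sterol-linked ligases of the endoplasmic reticulum membrane. The stop codon peak of RNF145 (chr5:159158023-159161327 in the control list, minus strand) stood at percentile 94.9 with DF2 siRNA 1, 90.8 with DF2 siRNA 2 and 99.0 with control siRNA, with enrichments of 84.8-fold, 55.9-fold and 61.5-fold. RNF139 was at 95.3 and 93.9 with the DF2 siRNAs and 96.2 with control siRNA, where the control list gives 1 stop codon peak of 2100 covered bases and each DF2 siRNA list gives 2 shorter ones in its place.

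RNF168 adds ubiquitin to histones around DNA breaks after RNF8 has marked them. Its stop codon peak (chr3:196471730-196472729 in the DF2 siRNA 2 and control lists, minus strand) was at percentile 93.5 with DF2 siRNA 1, 95.0 with DF2 siRNA 2 and 98.4 with control siRNA. Its 5′ UTR peak (chr3:196487552-196503768) had the same ends in all 3 lists, at percentiles 89.0, 93.8 and 88.1. RNF11, a small RING protein that works with NEDD4-type ligases, had 1 peak of 600 bases in each list, at 94.9, 93.5 and 95.7.

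Of 11 listed DNA damage and chromatin RING genes, 9 had a peak and all 9 had at least 1 in each list, with no row for RNF2 or TRIM28. RNF20 and RNF40, partners that ubiquitinate another core histone, had best percentiles of 68.4 and 61.5 with DF2 siRNA 1, 72.2 and 69.5 with DF2 siRNA 2, and 82.6 and 53.2 with control siRNA. RNF4, which targets SUMO-bearing proteins, had a stop codon peak of 400 bases with identical ends in the 3 lists, at 81.4, 86.7 and 85.4. TRIM24, a bromodomain chromatin reader, reached 74.5 and 73.8 with the DF2 siRNAs and 92.4 with control siRNA, where the peak began 200 bases earlier and took in the stop codon. RNF8 was at 62.5 and 67.7 with DF2 siRNA 1 and 2 and 72.1 with control siRNA. RNF111, another SUMO-targeted ligase, was at 56.7, 61.6 and 75.4, and TRIM33, a regulator of SMAD signalling, at 66.1, 79.7 and 82.9. RNF169 was at 65.7, 76.0 and 82.0.

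Membrane and receptor-traffic RING genes were also mostly present in all 3 lists. Of 8 listed ER and mitochondrial genes, 5 had a peak and each of these had it in all 3 lists, namely RNF139, RNF145, RNF121, RNF103 and RNF185, the last a ligase of ER-associated degradation. RNF121 had a stop codon peak of 1200 bases in each list, at 92.6 and 90.2 with the DF2 siRNAs and 88.7 with control siRNA, and RNF103 was at 77.0, 73.6 and 86.2. Of 7 WNT, Hippo and receptor-traffic genes, 6 had a peak, 5 of them in all 3 lists. RNF43, which removes WNT receptors from the cell surface, had 3 peaks in each list, and the strongest stood at 82.2 with DF2 siRNA 1, 68.3 with DF2 siRNA 2 and 74.4 with control siRNA. RNF41, which turns over ErbB receptors, was at 84.0, 85.9 and 86.4. RNF167 had a peak with DF2 siRNA 1 alone.

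The 4 RING-between-RING genes, whose products pass ubiquitin through a thioester on the ligase itself, were split. RNF217 had a 5′ UTR peak of 800 bases with the same ends in all 3 lists (chr6:124962545-124963344, plus strand), at 89.4 with DF2 siRNA 1, 91.9 with DF2 siRNA 2 and 77.9 with control siRNA. RNF216 was also in all 3, at 52.1, 54.5 and 66.4. RNF14 had no peak with DF2 siRNA 2, and RNF31 had one in control alone.

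Among the 98 genes, RNF13 was the exception in place. RNF13 is a transmembrane RING protein of endosomes and lysosomes. Its strongest control peak, at the stop codon (chr3:149960102-149961104, plus strand), had percentile 75.0, 11.7-fold enrichment and a −log10 FDR of 1.67, and no peak of either DF2 siRNA list overlapped it. Its 5′ UTR peak was in all 3 lists, at 57.4 and 54.5 with DF2 siRNA 1 and 2 and 68.1 with control siRNA. In the other 97 genes the strongest control peak overlapped a peak of both DF2 siRNA lists. All 98 were chosen for a peak in every list, and the same count over all 7053 such genes is not at hand.

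TRIM genes with antiviral roles had peaks in 7 of 9 cases, 6 of them in all 3 lists. TRIM56 had 3 peaks in each list, and its strongest, at the stop codon, was at 89.5 and 85.0 with the DF2 siRNAs and 86.4 with control siRNA, with 111-fold, 99.3-fold and 59.4-fold enrichment. TRIM65, a ligase of the RNA sensor MDA5, was at 85.5, 87.0 and 76.3, and TRIM25, which acts on the sensor RIG-I, at 65.3, 75.4 and 74.1. TRIM21, a cytosolic antibody receptor, was at 75.8, 80.4 and 72.4. TRIM5, which binds retroviral capsids, was weaker, at 45.2, 43.9 and 57.2, and TRIM38 stood at 68.0, 61.0 and 64.2. TRIM34 was the member of the group with a peak in control alone.

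Of 17 other well-known TRIM genes, 14 had a peak, 11 of them in all 3 lists. TRIM32, whose gene is mutated in a muscular dystrophy, was at 80.1 with DF2 siRNA 1, 82.1 with DF2 siRNA 2 and 87.0 with control siRNA, where its peak covered 3000 bases, the most of any member control peak. TRIM2, an NHL-repeat ligase known from neurons, was at 86.3, 87.8 and 85.1, and its relative TRIM3 at 39.7, 50.9 and 47.4. TRIM41 was at 88.3, 84.7 and 71.9, and TRIM8 at 94.3, 78.7 and 77.7. TRIM11 was at 88.5, 91.0 and 86.9. Its stretch was called as 3 peaks with DF2 siRNA 1 and as 1 peak in both of the other lists, so a peak count can differ where the covered stretch is much the same.

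The 5 WD40 F-box genes ranged from the top of the lists to their lower end. FBXW2 had a stop codon and a 5′ UTR peak in each list, the stronger at 95.3 with DF2 siRNA 1, 98.1 with DF2 siRNA 2 and 98.8 with control siRNA. FBXW7, the receptor for cyclin E, MYC and NOTCH, had 4 peaks in both DF2 siRNA lists and 3 in control, where 2 of its upstream stretches are joined. Its best percentile was 74.5 in each DF2 siRNA list and 81.4 in the control list. FBXW4 had 1 weak 5′ UTR peak, at 29.9, 34.5 and 27.3. FBXW11, known as beta-TrCP2, was in the control list alone and FBXW5 in both DF2 siRNA lists alone.

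Leucine-rich-repeat F-box genes had peaks in 13 of 18 cases, 10 in all 3 lists. FBXL19, with a CXXC domain that binds CpG-rich DNA, had its strongest peak at 97.1 with DF2 siRNA 1, 97.1 with DF2 siRNA 2 and 96.0 with control siRNA. This peak had the same ends in all 3 lists (chr16:30946941-30948783, plus strand) and enrichments of 178-fold, 128-fold and 92.7-fold. In each list a peak given to AC135048.13 overlapped it. FBXL5, an iron sensor that turns over iron-regulatory protein IRP2, was at 79.0, 75.1 and 87.2, and FBXL12 at 68.0, 77.2 and 80.2. FBXL18 had 2 peaks in each list, the stronger at 92.4 and 89.5 with the DF2 siRNAs and 77.0 with control siRNA. FBXL17 was among the weakest, at 16.3, 9.57 and 8.04.

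Of 19 other F-box genes with known substrates, 15 had a peak, 12 of them in all 3 lists. FBXO28 was at 82.0 and 83.1 with the DF2 siRNAs and 94.7 with control siRNA, and FBXO45, a partner of the PHR ligase MYCBP2, at 92.5, 88.5 and 94.3. FBXO31 had a peak of 2400 bases with the same ends in all 3 lists (chr16:87329284-87334058, minus strand), at 93.6, 93.4 and 89.3. FBXO5, or EMI1, the inhibitor of the anaphase-promoting complex, had 1 peak with DF2 siRNA 1, 2 with DF2 siRNA 2 and 3 with control siRNA, and its strongest was at 66.5, 78.3 and 88.6. FBXO11, a ligase for BCL6, was at 71.2, 59.9 and 84.0, and FBXO3 at 8.67, 23.1 and 44.1. FBXO46 was at 91.4 and 90.1 with the DF2 siRNAs and 83.5 with control siRNA.

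**Figure D2:**
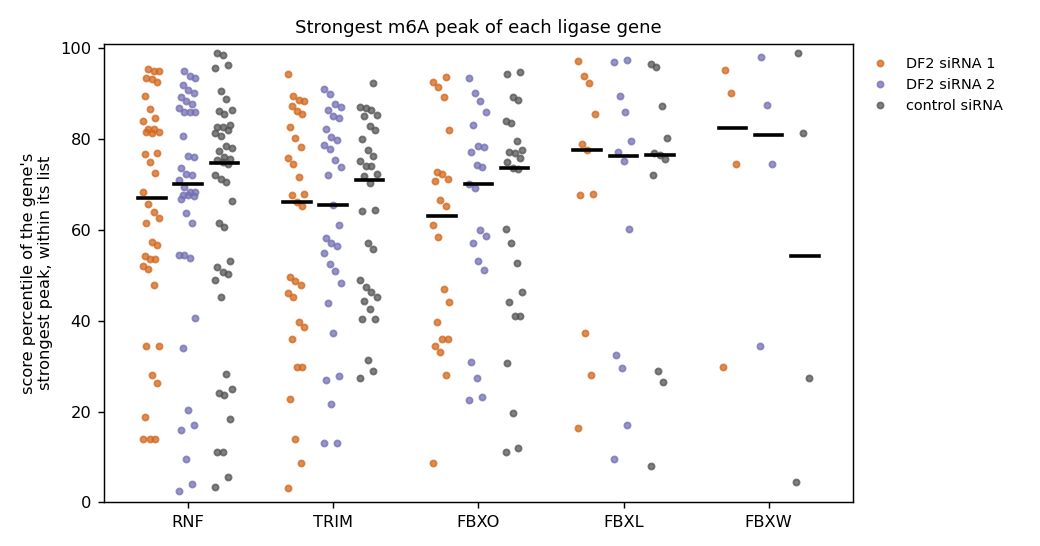
Score percentile of each ligase gene's strongest peak within its own list (vertical axis, 0 to 100), by subfamily and list, with 1 point per gene and a bar at the median. Medians lie between 54.3 and 82.3, and the FBXW columns hold 4 genes each.

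A few genes had a strong peak in every list. FBXL19, FBXW2, RNF11, RNF139, RNF145 and RNF168 were among those with their strongest peak above percentile 90 in each list. At least 1 peak had identical blocks in all 3 lists in 30 genes, 32 peaks beside the 130 member regions found in all 3 lists. Over all genes there were 2520 such peaks beside 9021 regions. Of 186 control peaks of members, 137 overlapped a DF2 siRNA 1 peak (73.7%, 66.7 to 79.8%) and 151 a DF2 siRNA 2 peak (81.2%, 74.8 to 86.5%). The shares of all control peaks, not limited to protein-coding genes, were 67.1% and 73.4%.

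Members with a peak in control alone had weak peaks, as did all genes of that kind. Their best percentiles ranged from 3.26 to 50.3 with a median of 19.7, beside 16.8 over all 1294 genes with a peak in control alone. In 3 of the 13 the strongest peak included the stop codon. So did 23.1% of all 3401 control peaks in regions held by control alone, a share counted by peak and not by gene. RNF115 stood highest, with 1 3′ UTR peak at 50.3 and 12.9-fold enrichment. TRIM37, which restrains centriole formation, had a 3′ UTR peak at 44.3, and FBXO22 one at 41.0 with 16.9-fold enrichment. The control peak of TRIM34 was at 45.2, and a DF2 siRNA 2 peak given to the readthrough gene TRIM6-TRIM34 overlapped it, so its place in this group depends on the symbol the peak was given.

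FBXO48 had a stop codon peak at 30.6 with 21.6-fold enrichment, the highest enrichment of the 13. FBXL2 was at 26.4, FBXO32 at 19.7 and RNF157 at 18.3. FBXO32, known as atrogin-1, is a ligase of muscle wasting. FBXO24 was at 12.0, RNF181 and RNF212 at 11.0, FBXW11 at 4.45 and RNF31 at 3.26. RNF31, or HOIP, is the catalytic part of the linear ubiquitin assembly complex, and its peak had a score of 4. The RNF181 peak covered 20 bases. In 4 of the 13 the strongest peak had an FDR of 0.01 or more. Over all control peaks, strongest or not, the FDR was under 0.01 in 81.2%.

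The 5 members with a peak in both DF2 siRNA lists and none in control included stronger ones. Over all 383 such genes the median percentile of the strongest peak was 44.2 with DF2 siRNA 1 and 48.7 with DF2 siRNA 2. FBXW5 had 2 peaks in each DF2 siRNA list, the stronger at 90.2 with DF2 siRNA 1 (38.5-fold) and 87.4 with DF2 siRNA 2 (21.8-fold). RNF187 had a 3′ UTR peak at 76.8 and 76.3, and TRIM47 a stop codon peak at 78.2 and 77.9. TRIM35, at 13.9 and 37.4, and FBXL6, at 28.0 and 32.4, were weaker. The FDR of the strongest peak was under 0.01 in all 5 with DF2 siRNA 1 and was 0.01 or more in 3 of 5 with DF2 siRNA 2. Over all peaks of each of these lists, strongest or not, it was under 0.01 in 82.7%.

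The other 10 had peaks in lists that did not pair the DF2 siRNAs. FBXO9, RNF167 and RNF208 had a peak with DF2 siRNA 1 alone, at 33.1, 34.5 and 13.9, and FBXL22 and RNF223 with DF2 siRNA 2 alone, at 17.0 and 9.57. RNF14, at 34.5 with DF2 siRNA 1 and 51.9 with control siRNA, and TRIM23, at 22.8 and 40.3, had none with DF2 siRNA 2. RNF123, RNF130 and TRIM4 had none with DF2 siRNA 1. RNF123 was at 2.54 with DF2 siRNA 2 and 5.65 with control siRNA, RNF130 at 3.98 and 23.7, and TRIM4 at 27.9 and 31.3. RNF208 and RNF223 were named with their values in view. Peaks with DF2 siRNA 1 alone marked 2.38% of members and DF2 siRNA 2 alone 1.59%, beside 5.03% and 2.85% of all genes. Peaks in DF2 siRNA 1 and control marked 1.59% of members and DF2 siRNA 2 and control 2.38%, beside 3.62% and 7.57%. No such shares over protein-coding genes are at hand. With control-alone genes included, 22.1% of all genes with a control peak had none with DF2 siRNA 1, and 17.6% none with DF2 siRNA 2. Of all genes with a DF2 siRNA 1 peak 11.1% had none in control, and of those with a DF2 siRNA 2 peak 8.06%. Both of these include genes in both DF2 siRNA lists.

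**Figure D3:**
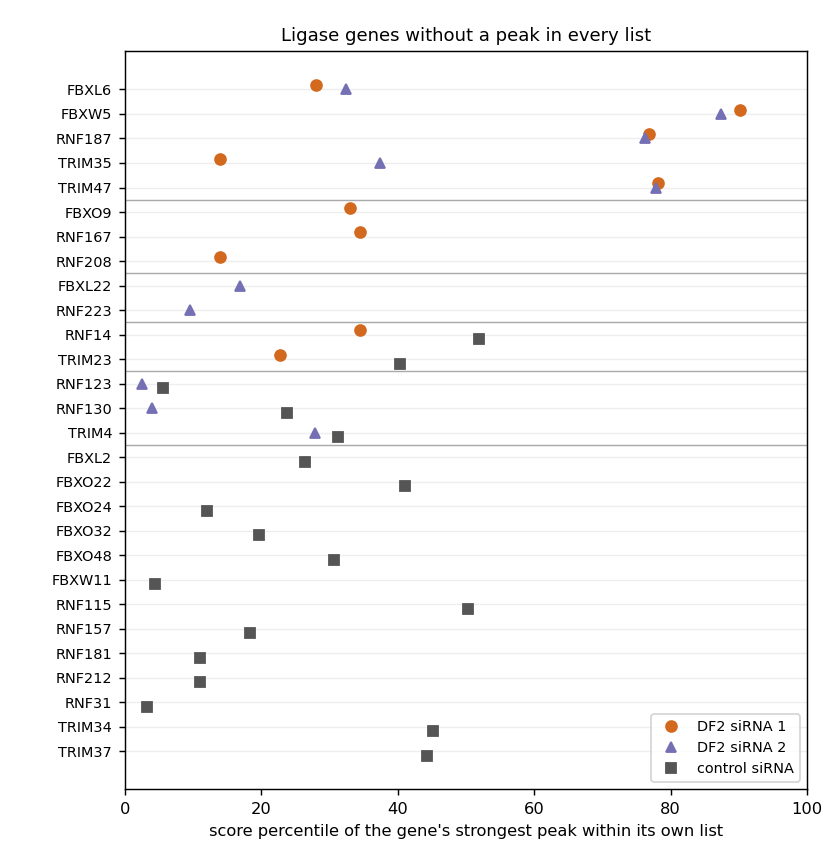
Score percentile of the strongest peak within its own list (horizontal axis) for the 28 ligase genes without a peak in every list, grouped by the lists that hold them. DF2 siRNA 1 is a circle, DF2 siRNA 2 a triangle and control siRNA a square, and the 13 control-alone genes lie at 50.3 or lower.

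Regions of overlapping peaks separated genes that kept a peak from places that did not. The members had 226 regions, and 130 of them were in all 3 lists (57.5%), beside 50.8% of 17771 regions over all genes. A region held by control alone was found 29 times (12.8%, 8.76 to 17.9%), beside 19.1% over all genes. A region in both DF2 siRNA lists and not in control was found 22 times (9.73%, 6.20 to 14.4%), beside 5.25%. These background shares are not limited to protein-coding genes, for which no region share is at hand. Peaks on non-coding RNA alone made up 7.61%, 10.6% and 12.6% of all peaks in the DF2 siRNA 1, DF2 siRNA 2 and control lists. Of member peaks they made up 0%.

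Within the 98 genes with peaks in all 3 lists, 14 also held a region in both DF2 siRNA lists and not in control (14.3%, 8.04 to 22.8%). The share over all 7053 such genes, not limited to protein-coding ones, was 7.57%. These genes were FBXL19, FBXO2, FBXO41, RNF145, RNF146, RNF169, RNF207, RNF213, TRIM26, TRIM3, TRIM44, TRIM52, TRIM62 and TRIM8, named with their values in view as are those of the next list. The regions held 16 peaks in each DF2 siRNA list, and no class made up over 6 of them. With DF2 siRNA 1 and 2, 5 and 6 of the 16 lay in the 5′ UTR, 5 and 4 at the stop codon and 4 and 5 in coding sequence. Over all members, 6 and 7 of 22 peaks in regions of this kind lay in the 5′ UTR. Over all genes the 5′ UTR share of such peaks was 40.1% and 42.2%. The percentiles of the 16 peaks ran from 8.67 to 73.4 with DF2 siRNA 1 and from 12.0 to 67.4 with DF2 siRNA 2. The FDR was 0.01 or more in 2 of the 16 peaks with DF2 siRNA 1 and in 7 of 16 with DF2 siRNA 2. Over all peaks it was under 0.01 in 82.7% of each of these lists.

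FBXL19 had a 5′ UTR peak of 600 bases at chr16:30923055-30924713 in both DF2 siRNA lists, at percentile 72.3 (41.7-fold) and 63.0 (26.0-fold), and none in control, while its other 5′ UTR peak and its stop codon peak were in all 3. RNF145 had a 5′ UTR peak of 200 bases at 40.9 and 42.3. RNF169, which binds the ubiquitin mark that RNF168 leaves, had a 5′ UTR peak over its transcript start at 28.0 and 35.3, and TRIM44 one at 48.0 and 52.1. TRIM8 had a stop codon peak (chr10:102657092-102657491, plus strand) at 73.4 and 47.6, beside a 5′ UTR peak present in all 3 lists. RNF146, a ligase of the WNT scaffold axin, had an extra peak at 31.5 and 27.4. FBXO41 had an added coding stretch upstream of its stop codon peak, at 56.7 and 40.5.

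The reverse, a region in control alone in a gene kept in all 3 lists, was also found in 14 of the 98 (14.3%), beside 17.6% over all such genes. These were FBXL4, FBXO16, FBXO21, FBXO31, FBXO43, FBXO5, RNF13, RNF150, RNF166, RNF215, TRIM13, TRIM2, TRIM65 and TRIM68. The 14 peaks ran from percentile 1.27 to 75.0, and RNF13 held the upper end. In 6 of the 14 the FDR was 0.01 or more, while it was under 0.01 in 81.2% of all control peaks. The control-alone stop codon peak of FBXL4, a mitochondrial F-box protein, was at 39.6.

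**Figure D4:**
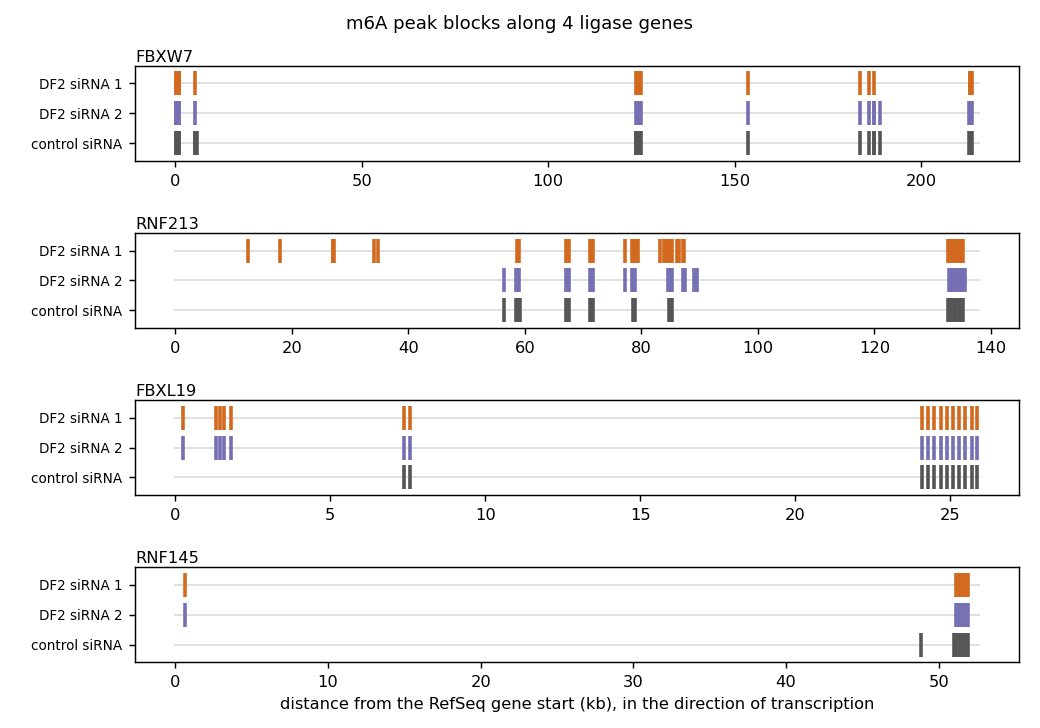
Block midpoints of m6A peaks (ticks, not drawn to width) along FBXW7, RNF213, FBXL19 and RNF145, with distance from the RefSeq gene start in kb on the horizontal axis, for DF2 siRNA 1, DF2 siRNA 2 and control siRNA. The 4 genes were picked with their values in view, and FBXL19 and RNF145 show an upstream stretch in both DF2 siRNA lists that the control list does not hold.

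A small group of members had many peaks. The number was the same in all 3 lists in 43 of the 98. For this count, and for 3 or more peaks in each list or in any list, no share over all genes is at hand. FBXW7, RNF213, RNF215, RNF34, RNF43 and TRIM56 had 3 or more in each list, and 28 members had 3 or more in any list. Counting peaks inside the RefSeq gene span alone, RNF215 and RNF34 no longer had 3 in each list, and 26 members had 3 or more in any list. The other 22 were FBXL8, FBXL19, FBXO5, FBXO10, FBXO21, FBXO34, FBXO41, RNF111, RNF130, RNF139, RNF150, RNF169, RNF207, RNF220, TRIM2, TRIM3, TRIM4, TRIM11, TRIM13, TRIM39, TRIM45 and TRIM65, with at most 4 peaks in a list. RNF213, a very large ligase with an ATPase motor, had the most, with 10 peaks with DF2 siRNA 1, 7 with DF2 siRNA 2 and 6 with control siRNA. Its strongest coding peak was at 86.6 with DF2 siRNA 1, 80.7 with DF2 siRNA 2 and 71.2 with control siRNA. All 6 control peaks lay in regions present in all 3 lists. Of its further peaks, 3 coding ones were found with DF2 siRNA 1 alone and a coding one in both DF2 siRNA lists and not in control. RNF215 was given 5, 4 and 6 peaks, of which 3, 3 and 5 lay beyond its RefSeq gene end. These include its strongest control peak, of 2400 bases and 126-fold enrichment.

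**Figure D5:**
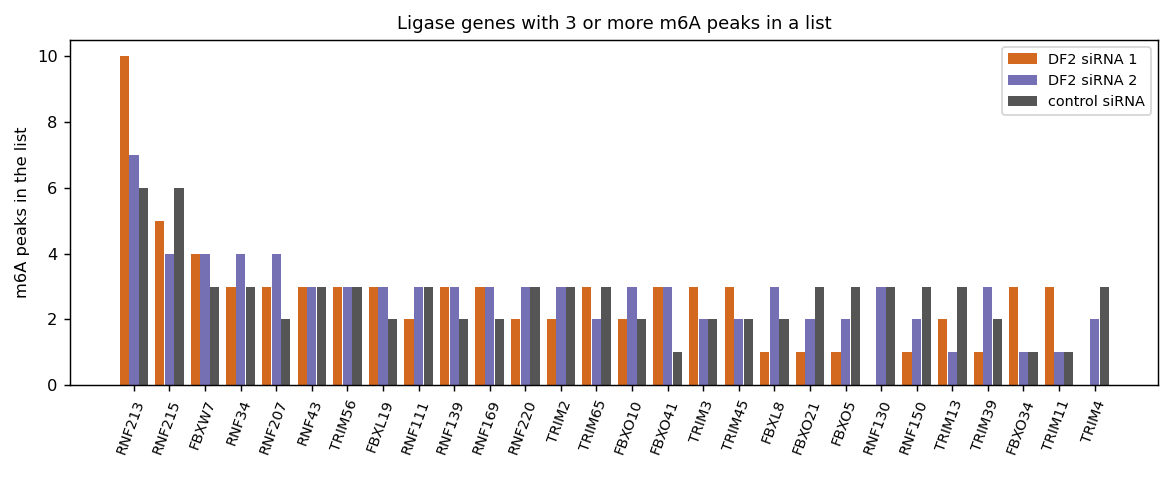
Number of m6A peaks in each list (vertical axis, from 0) for the 28 ligase genes with 3 or more peaks in any list, with bars for DF2 siRNA 1, DF2 siRNA 2 and control siRNA and peaks outside the RefSeq gene span included. RNF213 has 10, 7 and 6 peaks, and RNF130 and TRIM4 have none with DF2 siRNA 1.

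Genes that work with the ligases were counted from 4 lists, and the genes of those lists with a peak in control alone or in both DF2 siRNA lists alone were named with their values in view. Their counts stand against 65.4% of all genes in all 3 lists, 12.0% in control alone and 3.55% in both DF2 siRNA lists alone. Of 34 cullin-RING core and NEDD8 genes, 23 had a peak, 11 of them in all 3 lists. CCNF, the F-box protein cyclin F, had the highest control score among them, at percentile 94.4 with DF2 siRNA 1, 98.0 with DF2 siRNA 2 and 96.9 with control siRNA. The scaffolds CUL2, CUL5 and CUL4B, the NEDD8-activating enzyme subunit UBA3 and the COP9 signalosome subunit COPS8 had a peak in control alone, the scaffolds at 59.1, 65.3 and 62.9. NEDD8, the modifier that switches cullins on, and UBE2M, its E2 enzyme, had one in both DF2 siRNA lists and not in control, NEDD8 at 60.6 and 64.7 and UBE2M at 67.2 and 59.5.

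Among HECT ligases 22 of 28 had a peak, 17 in all 3 lists, and HERC4 and G2E3 had one in control alone. Of 33 ubiquitin E1 and E2 genes 25 had a peak, 14 in all 3 lists. UBE2D1 and UBE2N had one in control alone and UBE2K and UBE2Z in both DF2 siRNA lists and not in control. By list, 23 had a peak with DF2 siRNA 1, 16 with DF2 siRNA 2 and 18 with control siRNA. UBA1, UBE2C, UBE2E2, UBE2E3 and UBE2S, also named with their values in view, had one with DF2 siRNA 1 alone, as did 5.03% of all genes. Genes of other RING ligases and of proteins related to them had a peak in 56 of 80 cases, 47 in all 3 lists. PCGF1, PCGF6 and UHRF2 had one in control alone, and RING1, MIB1 and PRPF19 in both DF2 siRNA lists and not in control. UHRF1, a reader of hemimethylated DNA, stood at 99.7, 99.9 and 99.4 in the DF2 siRNA 1, DF2 siRNA 2 and control lists. None of these counts was tested.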

How the data were processed

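Peak lists of m6A-IP over input were analysed for U2OS cells with DF2 siRNA 1, DF2 siRNA 2 or control siRNA. HISAT2 and the hg38 build are named per the submitters' processing notes and the sources used here do not name a peak caller. The score, a whole number of 3 or more, the fold enrichment (a ratio) and the −log10 FDR of each peak are the authors' values, per the file headers. The names of the deposited files speak of a merge of r1 and r2, while the labels give each condition 1 m6A-IP and 1 input. Depth is unknown.

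Blocks were read 1-based, with block sizes on the minus strand reversed. Peaks of the same strand overlapped where their blocks shared 1 base or more, and overlapping peaks of different lists were joined into regions. Classes were taken from the authors' annotation in the order stop codon, 5′ UTR without 3′ UTR, 3′ UTR without 5′ UTR, both UTRs (mixed), coding and non-coding. Percentiles rank the score within a list. Rows with no gene symbol stayed out of gene counts. Promoters of chromosome 8 were left out. Biotypes, symbols and sequences came from RefSeq GRCh38.p14, which gave 123 members by current and 3 by older symbol, and matched 9502 of 10785 symbols. Shares have 95% exact (Clopper-Pearson) binomial intervals. No p-value was computed, since each condition has 1 list. Peaks of a gene share their transcript and are not replicates.

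Members and lists were chosen with earlier results of these data known. Invalid or doubled symbols were taken out of the gene lists after the files had been read. Genes were named by rule: members found in control alone or in both DF2 siRNA lists alone, the 4 highest control scores per subfamily, members with 3 or more peaks, role groups, up to 6 members missing from 1 DF2 siRNA list, members whose strongest control peak no DF2 siRNA peak overlaps, and up to 3 genes per related list. Some genes that the rule names are not reported here. Overlap code was tested on simulated data. Alternatives were an FDR under 0.01, equal list lengths, the top 50% by score or fold, other overlap rules, other class rules, symbols with letters, leaving out members that share a place with another gene, and leaving out peaks outside the RefSeq gene span. Python 3.11.15, pandas 2.3.3, numpy 2.4.6, scipy 1.17.1 and matplotlib 3.10.9 were used.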

Additional observations from a re-analysis of the deposited data

How the results depend on the processing

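The 98 members in all 3 lists and the member genes per list moved by at most 1.5 times under every alternative run. Members in control alone numbered 13, but 8 with equal list lengths and 3 in the top 50% by score; members in both DF2 siRNA lists alone numbered 5, but 7 with equal list lengths and 3 in the top 50% by score. Peaks in the DF2 siRNA 1, DF2 siRNA 2 and control lists numbered 98, 107 and 100 where the upper 50% by score were used, and 101, 100 and 103 with fold in its place, by construction. The 5′ UTR share was 13.9%, 11.1% and 10.3% with 1 peak per gene and 6.01%, 5.91% and 6.45% when a peak could touch no other part; in control it was 12.0% for the upper 50% by score and 11.7% for that by fold. The stop codon share was 61.1%, 64.8% and 62.1% with 1 peak per gene and 60.4%, 68.0% and 68.9% in the top 50% by fold, and 63.6% with DF2 siRNA 2 and 67.0% in control by score. The 3′ UTR share in control was 22.0%, but 13.4% when a peak could touch no other part, 13 of 100 peaks for the upper 50% by score and 13.6% for that by fold; with DF2 siRNA 2 it was 17.7%, but 10.3% by score and 9 of 100 peaks by fold. The DF2 siRNA 2 coding share was 9.14%, but 5 of 100 peaks for the upper 50% by fold and 5.88% at an FDR under 0.01. With 50% of each peak in common, 65.6% of control peaks were found with DF2 siRNA 1. An FDR under 0.01, 100-base gaps, symbols with letters, leaving out members that share a place and leaving out peaks outside the RefSeq gene span, the last pair chosen after seeing the data, kept counts within 1.5 times and shares inside the intervals of the values in the report. A stop codon class for peaks that touch no other part has no value, since a stop codon lies in coding sequence. No paired analysis was possible because each condition has 1 merged list with no replicate columns. For the same reason no replicate could be left out, and depth limits cannot be given. Apart from the construction named, the cause of these shifts was not tested.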
